A study of Caenorhabditis elegans with 40 samples.

Results

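Ribosome profiling (Ribo-seq) of 2 heterozygous large-subunit ribosomal protein (RP) mutants of C. elegans, rpl-33(0)/+ and rpl-5(0)/+, was compared with wild-type animals that carry the same balancer chromosome. The libraries were chosen by genotype and balancer, and they are 8 of the 20 Ribo-seq libraries used from this series of 40 samples. There were 2 libraries of rpl-33(0)/mIn1 and 2 of rpl-5(0)/mIn1, both from L4 larvae collected at day 4. The controls were 2 libraries of wild type/mIn1 at day 3, also L4 larvae and so matched in stage, and 2 of wild type/mIn1 at day 4, pregravid adults matched in time. All animals were grown at 16 °C, and whole bodies were lysed. Every animal, control or mutant, carried 1 copy of the balancer mIn1, a rearranged chromosome II that prevents loss of the null allele by recombination; the labels write it mc6. Both null alleles are premature stop codons in a single strain each, cc2558 (R9X) for rpl-33 and cc5998 (A166X) for rpl-5. Wild-type copies of both genes remain on the balancer.

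Ribosomes are built from RNA and a full set of RPs, and animals that have lost a copy of an RP gene are known for slow growth. RPL-5 binds the 5S ribosomal RNA and is delivered to the large subunit early in its assembly, and RPL-33 (eL33, RPL35A in human) joins the same subunit. Ribo-seq sequences the stretches of mRNA covered by ribosomes after nuclease digestion, so a gene's share of the fragments follows both its mRNA level and how densely ribosomes occupy that mRNA.

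The reference coding sequence around the codon that each allele turns into a stop is shown because these positions define the 2 mutants. Capitals mark that codon, and the flanking 4 codons on either side are in lower case. The sequences were read 5′ to 3′ on the plus strand of chromosome II from the RefSeq genome of build WBcel235. The rpl-33 window (chrII:7105581-7105607) lies in coding exon 1 of 4, at codon 9 of 124. The rpl-5 window (chrII:8570513-8570539) lies in coding exon 3 of 4, at codon 166 of 293.
rpl-33: gctgttgctagaAGAccatcggcccca
rpl-5: atgaagggagttGCTgatggaggcatc
The changed codon lies 7.26% of the way along the residues of rpl-33 and 56.7% of the way along those of rpl-5.

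The counts were few, far below the read depth that the study's methods call for. Whether the table holds all of the reads was not established, so counts and levels describe the table as deposited. Totals were 1681 and 5186 in rpl-33(0)/+ (replicates 2 and 3, as numbered in the column headings), 3635 and 9637 in rpl-5(0)/+, 2895 and 4553 in the day 3 controls, and 2622 and 5998 in the day 4 controls. All 8 libraries held 36207 counts over 7385 genes, and 114 genes with at least 40 counts in all were tested singly. These 114 genes carried 22.02% of the counts. The minimum was taken over mutants and controls together, so a gene with few control counts was tested only if the mutants had many. The reverse also held. Levels are given as CPM (a gene's counts scaled to the total of its library, so that libraries of different depth can be compared), and a gene with 0 counts may stand at up to 1785 CPM in rpl-33(0)/+ replicate 2 and up to 311 CPM in rpl-5(0)/+ replicate 3, the level of 3 counts. Floors and intervals cover counting error only. For 7 of the 114 genes (rla-0, pck-2, clec-105, Y37H2A.7, zoo-1, C33C12.1 and H03E18.2) the highest count was less than 3 times the lowest although depth differed 5.73-fold, and together they took 5.53% of the shallowest library and 1.02% of the deepest. Replicates of each mIn1 group differed by more than counting noise. The study's methods describe its replicates as independent biological ones.

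The targeted genes themselves were counted too rarely for a test. Of rpl-33, WBGene00004447, which lies on chromosome II between 7105563 and 7106316, the table held 1 and 2 counts in rpl-33(0)/+, 2 and 6 in rpl-5(0)/+, 1 and 2 in the day 3 controls and 2 and 4 in the day 4 controls. These correspond to 490.3 ± 148 CPM (SD, n = 2) in rpl-33(0)/+ and 554 ± 194 CPM (SD, n = 4) in the controls, so a loss of rpl-33 signal was not detectable at this depth. The gene rpl-5 (WBGene00004416, chromosome II from 8569927 to 8571100) had 0 and 5 counts in rpl-33(0)/+, 3 and 7 in rpl-5(0)/+, 7 and 4 in the day 3 controls and 3 and 10 in the day 4 controls. Its level was 775.8 ± 69.96 CPM (SD, n = 2) in rpl-5(0)/+ and 1527 ± 678 CPM (SD, n = 4) in the controls. Both rpl-5(0)/+ libraries lay below all 4 controls, of which the lowest had 879 CPM, on 10 and 24 counts in all.

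Each mutant was compared with the 4 controls gene by gene in edgeR's quasi-likelihood test, with p values adjusted by the Benjamini-Hochberg method over the 114 genes. In rpl-33(0)/+, 9 of 114 genes passed an adjusted p of 0.05 (7.89%), of which 8 were higher (7.02%) and 1 lower (0.877%) than in the controls. In rpl-5(0)/+, 15 of 114 genes passed (13.2%), of which 12 were higher (10.5%) and 3 lower (2.63%). In simulated counts, described with the processing, the count minimum kept far more raised than lowered genes. The excess of higher over lower calls therefore cannot be read apart from that minimum. For every gene called higher except hsp-110, the mutant counts alone reached the minimum. For the genes called lower, the control counts alone did. Fold changes, p values and gaps between groups for those genes cannot be read apart from that minimum either. The median log2 fold change over all tested genes was -0.01 in rpl-33(0)/+ and -0.14 in rpl-5(0)/+. Together the calls named 18 genes: 9 genes of the cuticle collagen list, a further collagen gene (rol-1), 3 heat shock protein genes, 2 vitellogenins, ahcy-1, catp-3 and E01G4.6. Of these, 6 were called in both mutants, which are 66.7% of the rpl-33(0)/+ calls and 40% of the rpl-5(0)/+ calls, and the 2 comparisons share their controls. The 5 called higher in both lie on chromosome II, which carries both null alleles and the balancer, as does hsp-4. Every other called gene lies elsewhere, and tested genes of chromosome II such as col-20, col-80, unc-52 and rpl-10 were not called. The part of this chromosome in the calls was not tested. The number of calls differed with the age of the controls. Against the day 3 controls alone, 0 genes (0%) passed in either mutant (13 in rpl-33(0)/+ and 17 in rpl-5(0)/+ had an unadjusted p below 0.05), and against the day 4 controls alone 24 of 114 (21.1%) passed in each. In rpl-33(0)/+, the count was 0 without its own replicate 3 (unadjusted, 11), without day 4 replicate 2 (unadjusted, 28) and without day 4 replicate 3 (unadjusted, 19), and 20 without day 3 replicate 2. In rpl-5(0)/+, it was 5 without its own replicate 2, 3 without its own replicate 3 and 8 without day 4 replicate 3. DESeq2's Wald test called 0 genes in rpl-33(0)/+ (unadjusted, 24) and 10 in rpl-5(0)/+.

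**Figure D1:**
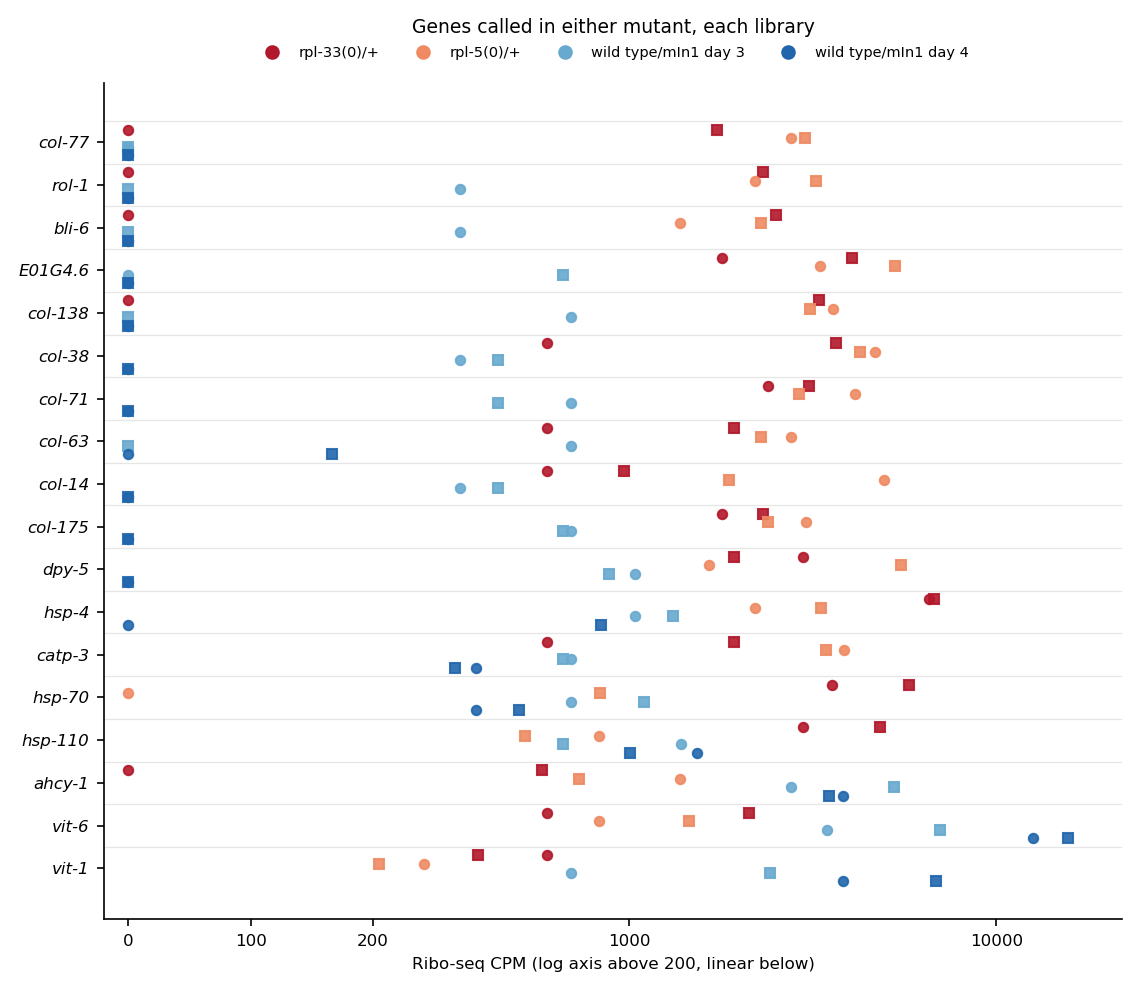
Ribo-seq CPM of the 18 genes called in either mutant, with 1 point per library (circle, replicate 2; square, replicate 3) on an axis that is linear below 200 CPM and logarithmic above. Collagen genes are at 0 in both day 4 controls except col-63, and the vitellogenins run from the mutants through day 3 to day 4.

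Genes of the cuticle collagen list, structural proteins that the hypodermis lays down anew at each moult, were 9 of the 15 genes called higher in either mutant. In rpl-33(0)/+ they were 3 of the 8 called higher. The collagen list has 177 genes in the table, 128 with a count and 21 tested singly, and counts of collagens with similar sequences may be split uncertainly between them. Of these 21, 3 were called higher in rpl-33(0)/+ and 9 in rpl-5(0)/+, and 0 were called lower in either. Over all 114 genes, 8 (7.02%) and 12 (10.5%) were called higher. The 21 were split in direction, 13 with positive and 8 with negative values in each mutant. Their median log2 fold change was 1.95 in rpl-33(0)/+ and 2.33 in rpl-5(0)/+, against -0.01 and -0.14 over all tested genes. Low-count collagens entered the 21 only where some group had many counts, so these medians and calls are shaped by that filter.

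The collagen col-38 (WBGene00000615, chromosome II from 8568035 to 8569088) had 595 and 3664 CPM in rpl-33(0)/+, 4677 and 4254 in rpl-5(0)/+, 345 and 439 in the day 3 controls and 0 in both day 4 controls. All 4 mutant libraries were above all 4 controls, but rpl-33(0)/+ replicate 2 held a single count. The log2 fold change was 3.48 in rpl-33(0)/+ (SE 0.98, adjusted p = 0.0389) and 4.30 in rpl-5(0)/+ (SE 0.89, adjusted p = 0.00324). With the 3 control counts, the ratio to the controls was 15.6 (95% counting interval 4.63 to 82.0) and 23.4 (7.62 to 117) in that order. For col-71 (chromosome II from 3500077 to 3502570), the mutants had 2380, 3085, 4127 and 2906 CPM, the day 3 controls 691 and 439 and the day 4 controls 0 and 0. All mutant libraries were above all controls, and col-71 rose by 3.28 (SE 0.97, adjusted p = 0.0389) and 3.57 (SE 0.90, adjusted p = 0.00816) on the log2 scale. Mutant counts alone carried col-38 and col-71 over the count minimum, so these values cannot be read apart from it.

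A further pair of collagens passed in both mutants on lopsided counts. The gene col-77 (chromosome II from 8358228 to 8359381) had 0 and 9 counts in rpl-33(0)/+, 10 and 29 in rpl-5(0)/+ and 0 in all 4 controls. Against a floor of 3 counts over the control group, its level was at least 7.02-fold higher in rpl-33(0)/+ and at least 15.7-fold in rpl-5(0)/+. The edgeR test gave adjusted p = 0.0416 and 0.00324 in that order. With 0 control counts, col-77 reached the count minimum through its mutant counts alone, so these values cannot be read apart from that minimum. The gene rol-1 (chromosome II from 12172573 to 12176069) had 0 and 12 counts in rpl-33(0)/+, 8 and 31 in rpl-5(0)/+ and a single control count, in day 3 replicate 2. Its ratio to the controls was 28.1 (counting interval 4.15 to 1200) and 47.2 (7.99 to 1912), with adjusted p = 0.0417 and 0.0046. The same limit holds for rol-1, whose mutant counts alone carried it over the minimum. In rpl-33(0)/+ both genes rest on replicate 3, and replicate 2 alone left a log2 fold change of 0 for col-77 and -1.40 for rol-1.

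The collagens called in rpl-5(0)/+ alone were col-14, col-63, col-138, col-175, bli-6 and dpy-5; mutants of the last pair are known for blistered and for short, dumpy bodies. Their log2 fold changes in rpl-5(0)/+ ran from 2.92 for col-175 (SE 0.77, adjusted p = 0.0117) to 4.32 for col-138 (SE 1.09, adjusted p = 0.00816). In rpl-33(0)/+ the same genes had values from 1.95 (col-14, adjusted p = 0.288) to 4.01 (bli-6, adjusted p = 0.0526). The difference between the mutants passed for 0 of the 6 genes, the closest being col-14 (-1.90, SE 1.01, adjusted p = 0.758). For dpy-5, the 4 mutant libraries ran from 1651 to 5500 CPM, the day 3 controls had 1036 and 879 CPM and the day 4 controls 0. For col-14 they ran from 595 to 4952 CPM, against 345 and 439 at day 3 and 0 at day 4. The groups did not overlap for dpy-5, col-14 or col-175, and the background for that is 16 of 114 tested genes (14%), 12 with the mutants higher (10.5%) and 4 with them lower (3.51%).

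Another set of collagens had its highest counts in the day 4 controls. The most counted was col-122, with 1785, 386, 550 and 934 CPM in the mutants, 345 and 2636 in the day 3 controls and 4577 and 7169 in the day 4 controls. Its log2 fold change was -2.17 in rpl-33(0)/+ (adjusted p = 0.1215) and -2.22 in rpl-5(0)/+ (adjusted p = 0.0592), and the groups overlapped. The other 7 tested collagens with negative values (col-20, col-80, col-106, col-124, col-140, col-181 and col-184) did not pass in either mutant. The split by direction was made after the values were seen and has no test. Summed over the list, collagens took 3.93% and 6.11% of counts in rpl-33(0)/+, 7.29% and 7.79% in rpl-5(0)/+, 2.87% and 5.32% in the day 3 controls and 3.66% and 7.22% in the day 4 controls, so the sum overlapped (exact two-sided permutation p = 0.257). In every group replicate 3 had the higher collagen share, and the permutation took no account of replicate number.

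**Figure D2:**
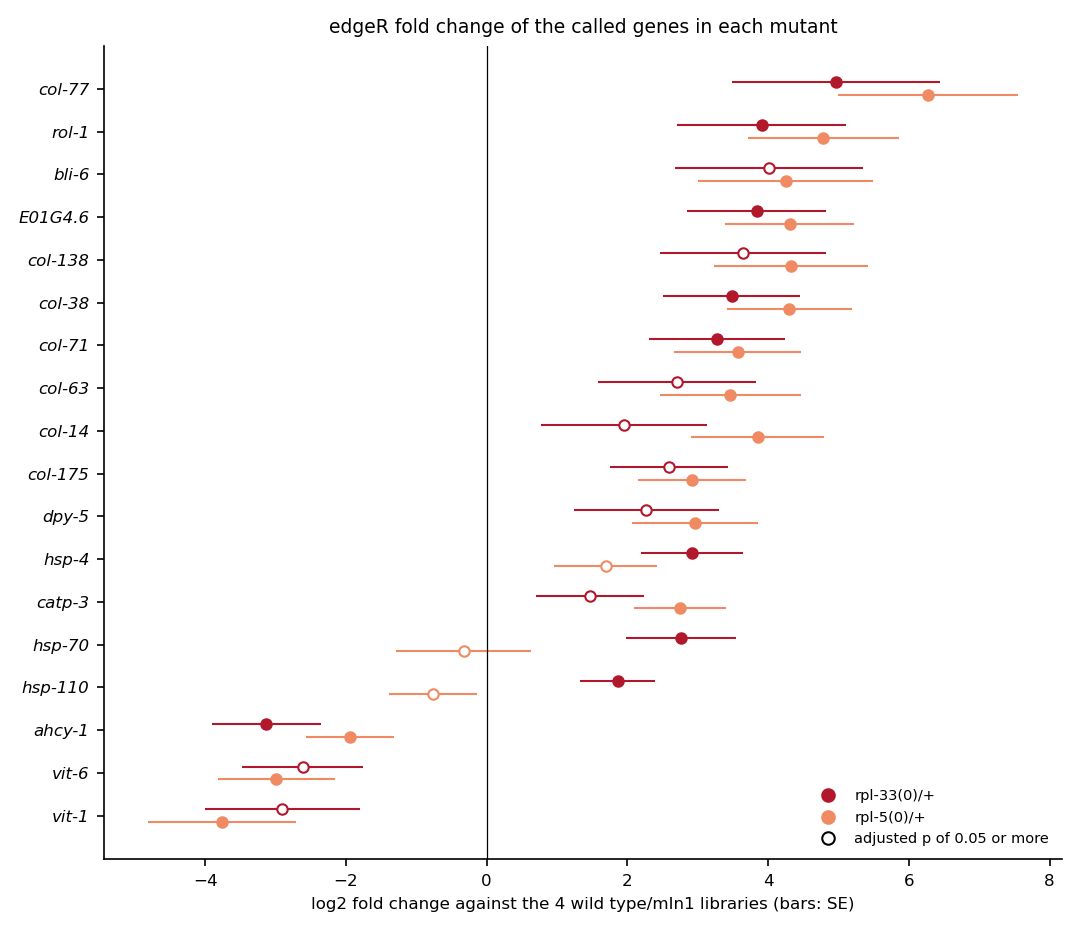
edgeR log2 fold change with its SE against the 4 wild type/mIn1 libraries, with 1 symbol for each mutant, and with open points where the adjusted p is 0.05 or more. The mutants have values of opposite sign for hsp-70 and hsp-110, and of the same sign for the other 16 genes.

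A pair of genes outside the lists were called higher. E01G4.6 (chromosome II from 13482405 to 13485780) had 1785 and 4049 CPM in rpl-33(0)/+, 3301 and 5292 in rpl-5(0)/+, 0 and 659 in the day 3 controls and 0 in both day 4 controls. All mutant libraries were above all controls, and it rose by 3.84 (SE 0.98, adjusted p = 0.0255) and 4.31 (SE 0.91, adjusted p = 0.00324) on the log2 scale. The gene catp-3 (chromosome V from 8076012 to 8079916), which encodes a cation-transporting ATPase, had 595 and 1928 CPM in rpl-33(0)/+, 3851 and 3424 in rpl-5(0)/+, 691 and 659 at day 3 and 381 and 333 at day 4. It rose by 2.75 in rpl-5(0)/+ (SE 0.65, adjusted p = 0.00701) and had a log2 fold change of 1.47 in rpl-33(0)/+ (adjusted p = 0.211), where replicate 2 lay within the control range. Mutant counts alone carried E01G4.6 and catp-3 over the count minimum, so their values cannot be read apart from it.

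Heat shock genes were called in rpl-33(0)/+ and not in rpl-5(0)/+. The gene hsp-70 (chromosome I from 9320325 to 9322519), a stress-inducible cytosolic chaperone, had 3569 and 5785 CPM in rpl-33(0)/+, 0 and 830 in rpl-5(0)/+, 691 and 1098 in the day 3 controls and 381 and 500.2 in the day 4 controls. Both rpl-33(0)/+ libraries lay above the other 6, and rpl-5(0)/+ lay among the controls. The log2 fold change was 2.76 in rpl-33(0)/+ (SE 0.79, adjusted p = 0.0389) and -0.33 in rpl-5(0)/+ (SE 0.96, adjusted p = 0.952). For hsp-110 (chromosome III from 8443910 to 8446909), a nucleotide exchange partner of cytosolic Hsp70, the values were 2974 and 4821 CPM in rpl-33(0)/+, 825 and 519 in rpl-5(0)/+, 1382 and 659 at day 3 and 1526 and 1000.3 at day 4. It rose by 1.86 in rpl-33(0)/+ (SE 0.53, adjusted p = 0.0389) and had -0.76 in rpl-5(0)/+ (SE 0.63, adjusted p = 0.553).

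The difference between the mutants was tested directly, and 0 of 114 genes passed (0%), with 3 below an unadjusted p of 0.05 and 0 calls from DESeq2 as well. Those 3 were all cytosolic chaperones. The difference, rpl-33(0)/+ minus rpl-5(0)/+, was 2.62 for hsp-110 (SE 0.65, adjusted p = 0.0548), 3.09 for hsp-70 (SE 0.94, adjusted p = 0.129) and 1.86 for hsp-90 (SE 0.57, adjusted p = 0.129). For hsp-90, a further cytosolic chaperone, rpl-33(0)/+ had 10113 and 7520 CPM, rpl-5(0)/+ 2476 and 2283 and the controls from 2072 to 4577, without overlap between the mutants. With day 3 and day 4 controls as separate groups, an alternative added after the data had been seen, 2 genes passed in this contrast. A difference between the mutants in chaperone counts is therefore not established by these libraries, and a gene called in 1 mutant is not shown to differ from the other.

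The ER chaperone BiP gene hsp-4 (chromosome II from 7350112 to 7352645) had 6544 and 6749 CPM in rpl-33(0)/+, 2201 and 3321 in rpl-5(0)/+, 1036 and 1318 at day 3 and 0 and 834 at day 4. All 4 mutant libraries were above the 4 controls. It rose by 2.92 in rpl-33(0)/+ (SE 0.72, adjusted p = 0.0255) and had 1.69 in rpl-5(0)/+ (SE 0.73, adjusted p = 0.141). The count minimum limits hsp-4 too, since its mutant counts alone reached it. Of the 9 tested genes of the chaperone list, 3 were called higher in rpl-33(0)/+ and 0 in rpl-5(0)/+, with medians of 1.16 and -0.10. Over all 114 genes, 7.02% and 10.5% were called higher, with medians of -0.01 and -0.14. The other ER members, hsp-3, crt-1, pdi-2 and pdi-3, did not pass in either mutant. Summed over the 54 genes of the list, chaperones took 4.64% and 5.94% of counts in rpl-33(0)/+ and between 2.85% and 3.47% in the other 6 libraries. The mutants together overlapped the controls (exact two-sided permutation p = 0.257). The values of rpl-33(0)/+ alone, 5.29% ± 0.92 (SD, n = 2) against 3.11% ± 0.30 (SD, n = 4), did not overlap the controls, but 2 libraries against 4 cannot give a permutation p below 0.0667.

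Pooled classes put more counts behind each value. Of 22 gene classes, 16 had at least 100 counts, and the share of each library's counts was compared between the 4 mutant and the 4 control libraries by an exact two-sided permutation test, whose smallest possible p is 0.0286. Only vitellogenins and the S-adenosylmethionine (SAM) cycle, 2 of the 16, reached it, and after adjustment over the 16 classes 0 passed (adjusted p = 0.229 for both). The class lists were chosen with earlier results of these data known, so the class p values are not independent of those results. Each mutant alone and each control age alone cannot reach 0.05 and are given as values.

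**Figure D3:**
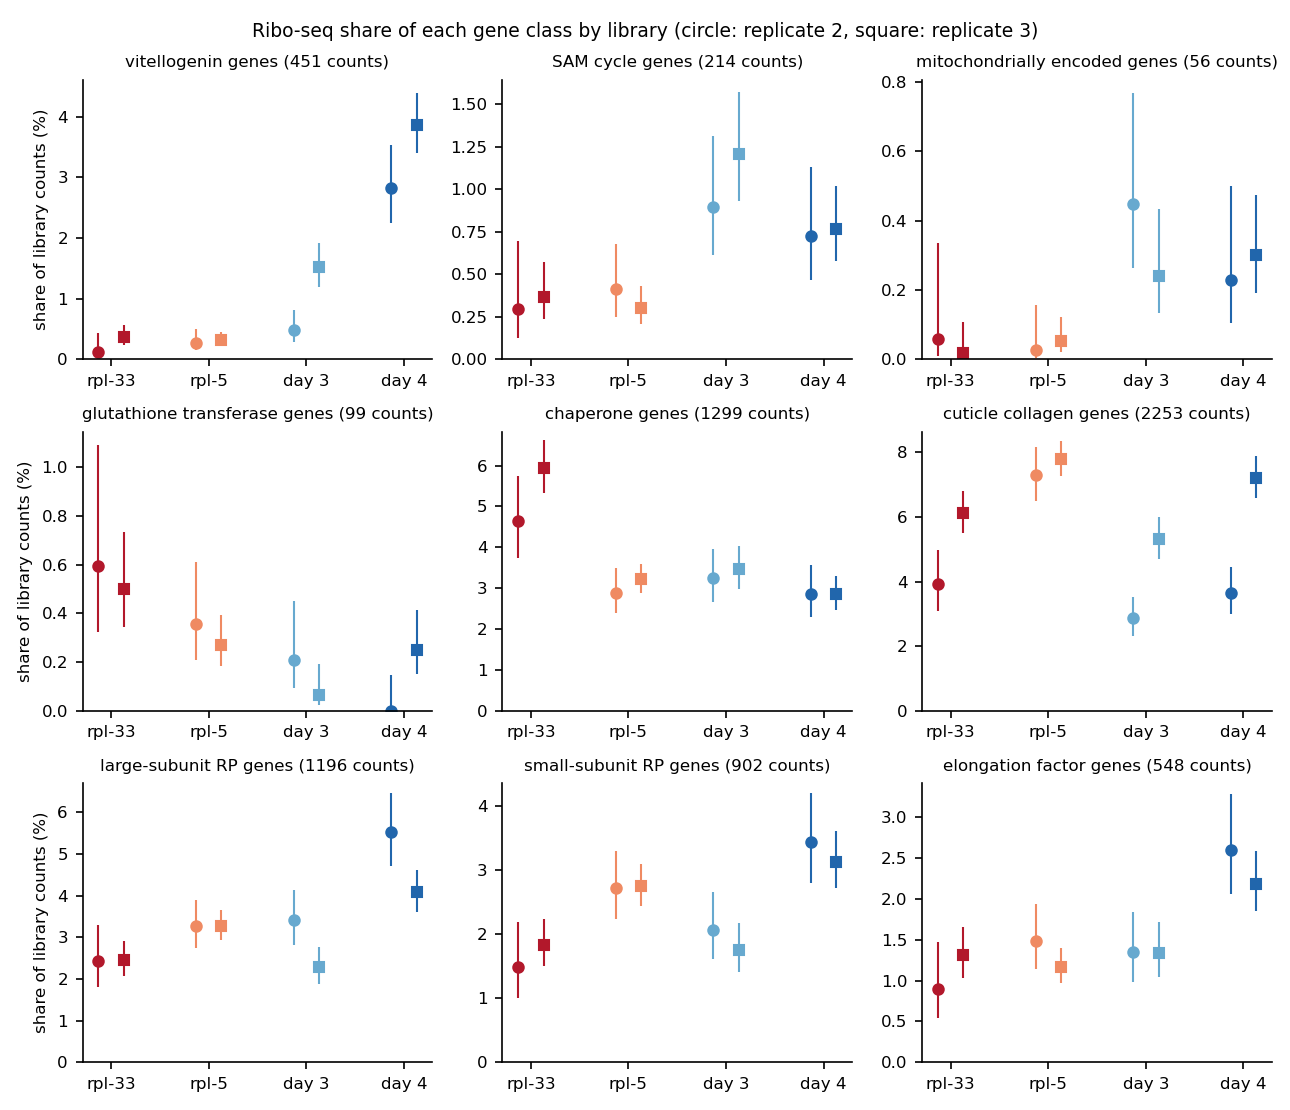
Share of library counts (%) of 9 gene classes, with 1 point per library and its 95% Wilson interval. Vitellogenin and SAM cycle shares in the mutants lie below every control, chaperones are highest in rpl-33(0)/+, and the RP and elongation factor shares are highest in the day 4 controls.

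Vitellogenins, the yolk proteins that the adult intestine makes for the oocytes, had the lowest relative counts in the mutants. Their share was 0.119% and 0.366% in rpl-33(0)/+, 0.275% and 0.322% in rpl-5(0)/+, 0.484% and 1.52% in the day 3 controls and 2.82% and 3.87% in the day 4 controls. No mutant library overlapped a control, and the control mean was 8.03 times the mutant mean (exact permutation p = 0.0286). It was 3.69 times higher at day 3 and 12.4 times at day 4. The gene vit-6 (chromosome IV from 8261157 to 8266459) had 595 and 2121 CPM in rpl-33(0)/+, 825 and 1453 in rpl-5(0)/+, 3454 and 7028 at day 3 and 12586 and 15672 at day 4. It fell by 2.99 in rpl-5(0)/+ on the log2 scale (SE 0.84, adjusted p = 0.0162), and its value of -2.61 in rpl-33(0)/+ missed the threshold (SE 0.86, adjusted p = 0.0518). The gene vit-1 fell by 3.76 in rpl-5(0)/+ (SE 1.06, adjusted p = 0.0162), and vit-2, its near-identical copy, had -2.20 there and did not pass, so the split between them is uncertain. In whole animals, fewer cells of a type and less RNA per cell cannot be told apart.

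A further class known from adults differed between the control ages. Oocyte and eggshell genes took between 0.366% and 0.660% of counts in the mutants, 0.311% and 0.703% at day 3, and 2.48% and 1.43% at day 4, so the mutants lay inside the day 3 range. Major sperm protein genes, a separate class, had only 18 counts, 4 in the mutants, 4 at day 3 and 10 at day 4, too few to compare the ages. The part of developmental stage in the gene calls was not tested beyond the values against each control age, and with 2 libraries per age the stage-matched comparison had 0 calls.

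The SAM cycle, which turns methionine into the cell's main methyl donor and recycles the product, was lower in the mutants at both control ages. Its share was 0.297% and 0.366% in rpl-33(0)/+, 0.413% and 0.301% in rpl-5(0)/+, 0.898% and 1.21% at day 3 and 0.725% and 0.767% at day 4. The controls were 2.61 times the mutants (exact permutation p = 0.0286), with 3.06 times at day 3 and 2.17 times at day 4. Its most counted gene, ahcy-1 (chromosome I from 6836469 to 6838140), encodes adenosylhomocysteinase, which clears the by-product of methylation. It had 0 and 3 counts in rpl-33(0)/+, 5 and 7 in rpl-5(0)/+, 8 and 24 at day 3 and 10 and 21 at day 4, without overlap in CPM. It was the only gene called lower in both mutants, falling by 3.13 in rpl-33(0)/+ (SE 0.78, adjusted p = 0.0255) and by 1.94 in rpl-5(0)/+ (SE 0.63, adjusted p = 0.0377). The next members, mel-32 with 15 mutant and 18 control counts and metr-1 with 11 and 20, were too rare for a test.

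**Figure D4:**
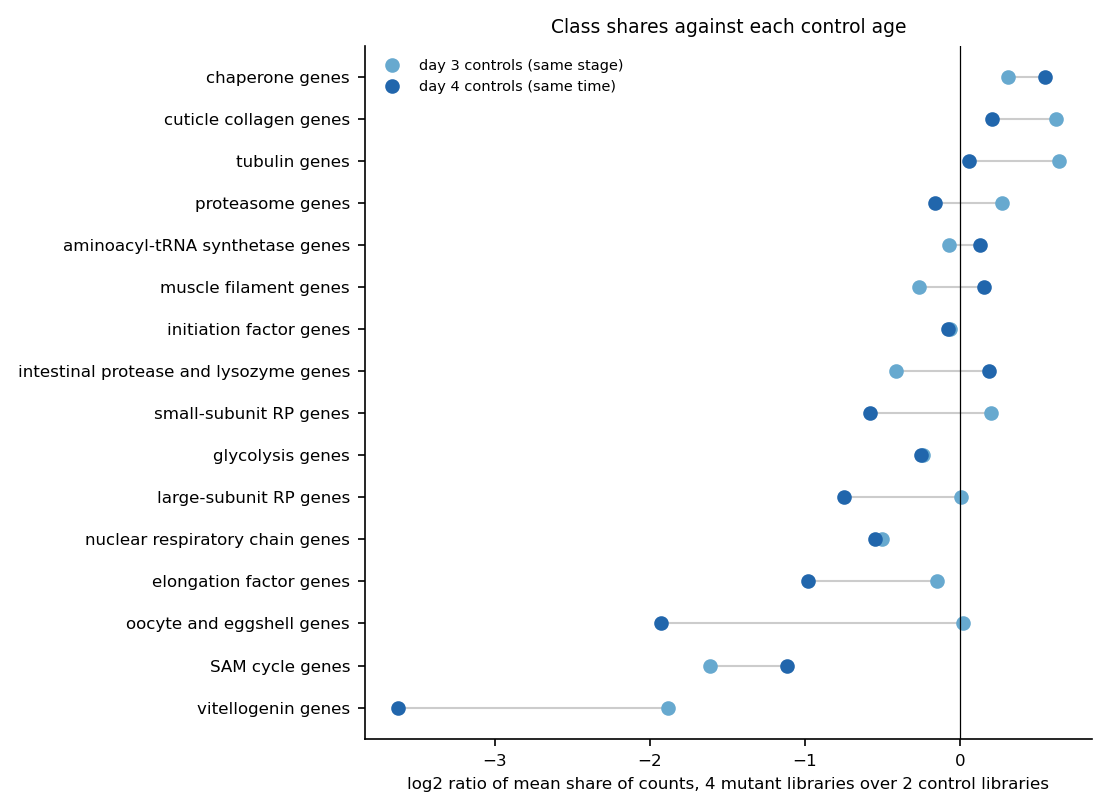
log2 ratio of the mean share of counts, 4 mutant libraries over 2 control libraries, for the 16 tested classes against the day 3 controls (light) and the day 4 controls (dark). Vitellogenins, the SAM cycle, nuclear respiratory chain genes, glycolysis and initiation factors are below 0 at both ages, the last only slightly. The RP, elongation factor and oocyte classes lie near 0 against day 3 and below it against day 4.

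RP genes were the class the mutations touch. Large-subunit RP genes took 2.44% and 2.45% of counts in rpl-33(0)/+, 3.27% and 3.28% in rpl-5(0)/+, 3.42% and 2.28% at day 3 and 5.53% and 4.08% at day 4. Small-subunit RP genes took 1.49% and 1.83%, 2.72% and 2.75%, 2.07% and 1.76%, and 3.43% and 3.13% in the same order. For both classes rpl-33(0)/+ was below rpl-5(0)/+ in every library, and the mutants overlapped the day 3 controls and lay below the day 4 controls. The mutants' mean over the controls' was 0.747 for the large subunit (exact permutation p = 0.314) and 0.846 for the small subunit (p = 0.457 in the same exact test), and over the day 3 controls alone 1.00 and 1.15. No RP gene was called in either mutant among 9 large-subunit and 6 small-subunit genes tested, whose medians were -1.10 and -0.63 in rpl-33(0)/+ and -0.24 and -0.09 in rpl-5(0)/+. The most counted were rpl-4, with values of -1.22 (adjusted p = 0.278) and -0.88 (adjusted p = 0.496), and rpl-15, with -1.15 and -0.24.

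Elongation factors, which carry the ribosome along the mRNA, had 0.892% and 1.31% of counts in rpl-33(0)/+, 1.49% and 1.16% in rpl-5(0)/+, 1.35% and 1.34% at day 3 and 2.59% and 2.18% at day 4. The mutants were at 0.903 times the day 3 mean and 0.508 times the day 4 mean (exact permutation p = 0.114 against both ages). Of the 2 tested, eef-1A.1 had -1.34 and -0.85 and eef-2 -0.53 and -0.02, and neither passed; eef-1A.1 has a near-identical copy, eef-1A.2, so its counts are uncertain. Initiation factors and aminoacyl-tRNA synthetases, which start chains and charge tRNAs, stood at 0.952 and 1.02 times the controls, with p of 0.543 and 0.857 in the exact permutation test.

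Respiratory chain genes are made by 2 translation systems, mitochondrial ribosomes for the mitochondrially encoded subunits and cytosolic ribosomes for the rest. The mitochondrially encoded class held only 56 counts, below the minimum of 100, and was added after the data had been seen with a minimum of 20. Of its counts, 8 were among the 20139 of the mutants and 48 among the 16068 of the controls. The share was 0.0595% and 0.0193% in rpl-33(0)/+, 0.0275% and 0.0519% in rpl-5(0)/+, 0.449% and 0.242% at day 3 and 0.229% and 0.300% at day 4. No mutant library overlapped a control, and the controls were 7.71 times the mutants (exact permutation p = 0.0286, adjusted p = 0.15 over 21 classes). The day 3 and the day 4 controls held 24 counts each. The gene ctc-1, encoding cytochrome c oxidase subunit I, had 2 counts in the mutants and 28 in the controls, a ratio of 0.0570 (counting interval 0.00658 to 0.226).

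Nuclear respiratory chain genes, 43 with a count, took 0.892% and 1.16% in rpl-33(0)/+, 1.18% and 1.56% in rpl-5(0)/+, 2.00% and 1.38% at day 3 and 1.79% and 1.70% at day 4. The mutants were at 0.696 times the controls, and 1 mutant library, rpl-5(0)/+ replicate 3, overlapped 1 control (exact permutation p = 0.0571, adjusted p = 0.305). Of 3 genes tested, 0 were called, and atp-1, the ATP synthase alpha subunit, had -0.83 and -0.72 with all mutant libraries below all controls.

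Glutathione transferases, which join glutathione to reactive compounds, were the class with the highest ratio. Its 99 counts fell just short of the minimum, and the class was also added with the lower one. The share was 0.595% and 0.501% in rpl-33(0)/+, 0.358% and 0.270% in rpl-5(0)/+, 0.207% and 0.0659% at day 3 and 0% and 0.250% at day 4. The mutants were 3.29 times the controls without overlap (exact permutation p = 0.0286, adjusted p = 0.15 over 21 classes), with 0.270% in the lowest mutant and 0.250% in the highest control. The most counted members were gst-1, with 13 mutant and 7 control counts, and gst-20, with 9 and 0.

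The remaining tested classes overlapped between mutants and controls. Muscle filament genes were at 0.953 times the controls, glycolysis at 0.845, the proteasome at 1.03, tubulins at 1.25 and intestinal proteases and lysozymes at 0.905, with exact permutation p values from 0.400 (glycolysis) to 0.914 (proteasome). Among the 20 most counted genes, unc-54, the body wall muscle myosin, varied with the replicate in every group, from 1651 to 12341 CPM, and icl-1, the enzyme of the glyoxylate cycle, had 2974 to 8099 CPM in the mutants and 763 to 3294 in the controls without passing in either mutant (1.57 and 1.54).

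RNA-seq counts of the same genotypes and ages were set beside the Ribo-seq values as a description. Their columns carry other replicate numbers than those of Ribo-seq, so they were not tied to the same lysates. In the RNA table the pair of rpl-5(0)/+ columns is identical, gene for gene, to the rpl-33(0)/+ pair, so it was used once and cannot be assigned to a mutant. All 15 genes called higher in Ribo-seq had a higher mean RNA level in that pair than in the 4 controls, as did 66 of the 110 tested genes with an RNA value (60%). Against the day 3 controls alone these were 14 of 15 and 62 of 110 (56.4%). For col-38, RNA was 2088 and 1461 CPM in the pair, 477 and 611.5 at day 3 and 22.5 and 7.92 at day 4. For hsp-70, RNA was 3553 and 2984 CPM in the pair, 594 and 603 at day 3 and 238 and 209 at day 4, a 5.46-fold difference from day 3. In Ribo-seq, hsp-70 was above the controls in rpl-33(0)/+ and among them in rpl-5(0)/+. The exception against day 3 was catp-3, whose RNA in the pair was 1.23 times the 4 controls and 0.859 times day 3.

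SAM cycle RNA was 0.230% to 0.319% of counts in the pair and 0.531% to 1.11% in the controls, without overlap. Vitellogenin RNA, at 0.400% to 0.558% in the pair, lay within the range of the day 3 controls (0.172% to 1.43%). It was below the day 4 controls (10.5% to 11.7%). Glutathione transferase RNA was 0.258% to 0.339% in the pair and 0.0667% to 0.0897% in the controls, 3.71 times the mean. The mitochondrially encoded genes had 0.922% to 1.43% of RNA in the pair against 0.679% to 0.972% in the controls, 1.47 times the mean and with overlap, while their Ribo-seq share was lower in both mutants. Large-subunit and small-subunit RP genes had 1.48 and 1.44 times the controls' RNA share, against 0.638 and 0.639 in rpl-33(0)/+ and 0.856 and 1.05 in rpl-5(0)/+ in Ribo-seq. The contrast depended on the age of the controls. Over the day 3 controls alone, the RNA ratios were 1.31 and 1.28, and the Ribo-seq ratios were 0.857 and 0.867 in rpl-33(0)/+ and 1.15 and 1.43 in rpl-5(0)/+, above 1 as in RNA. No test was run between the assays.

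**Figure D5:**
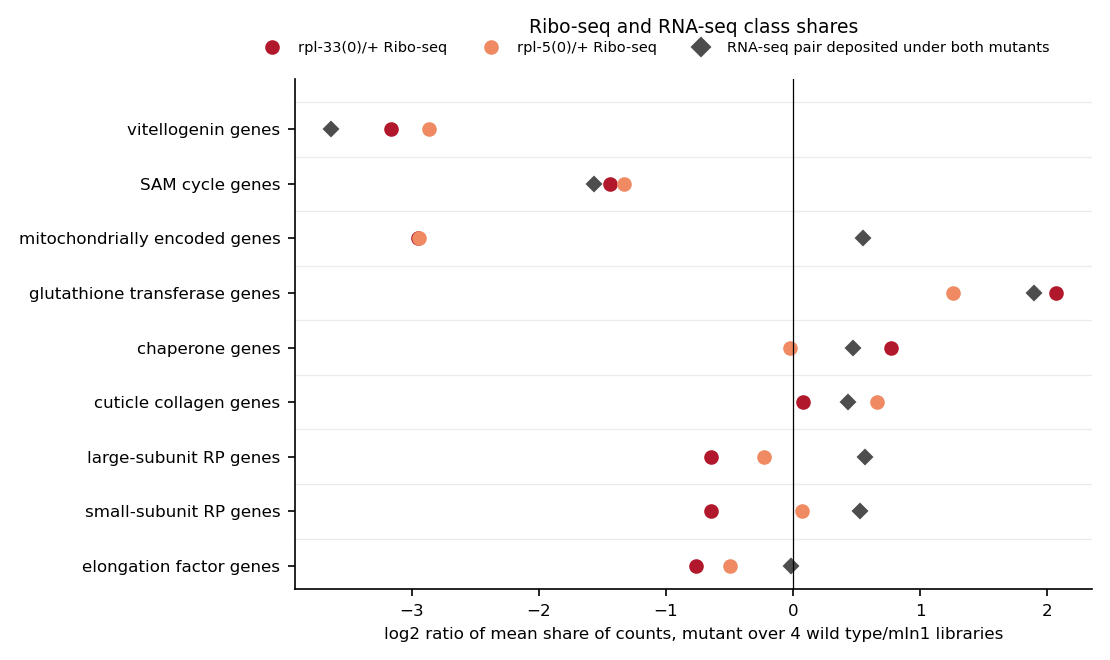
log2 ratio of mean class share, mutant over the 4 wild type/mIn1 libraries, in Ribo-seq (circles, each mutant) and RNA-seq (diamonds, the pair deposited under both mutants). Mitochondrially encoded genes are above 0 in RNA and below 0 in Ribo-seq for both mutants. Large-subunit RP genes are so against these pooled controls, but over day 3 alone the rpl-5(0)/+ ratio was 1.15.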

How the data were processed

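Lysates of whole animals were digested with RNase I, and ribosomes were pelleted through a sucrose cushion. The authors collapsed reads by molecular barcode and mapped them to the WBcel235 transcriptome with RiboFlow. The deposited values are whole-number counts per gene, not normalized. Versions of the authors' tools are not given in the sources used here. The column headings number the replicates 2 and 3, and 6 Ribo-seq columns that repeat other columns and 12 RNA columns were not used.

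The 20 Ribo-seq libraries used were fitted together in 7 groups with edgeR 4.0.16 (R 4.3.3, quasi-likelihood F test), with library totals as sizes and genes of at least 40 counts over the 8 libraries. Genes with a Benjamini-Hochberg adjusted p below 0.05 were called. DESeq2 1.42.0, TMM, other count minimums, control ages, a replicate block and leaving out each library were alternatives. Class shares were compared with Python 3.11.15 and scipy 1.17.1. Genes were named if they were the targets, were called, were among the 20 most counted or were among the 3 most counted of a class. The members and gene lists were chosen with earlier results of these data known. The gene test was also run on simulated counts for the rpl-5(0)/+ comparison. The simulation raised and lowered equal numbers of genes. At a log2 fold of 2, 64 raised and 7 lowered genes reached the count minimum. The test recovered 30 and 4 of these and called 1 of 73 unchanged genes. At a log2 fold of 3, 90 raised and 3 lowered genes reached the minimum. The test recovered 81 and 3 of these and called 7 of 77 unchanged genes. The count minimum thus kept far more raised than lowered genes.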

Additional observations from a re-analysis of the deposited data

Results flagged for a closer look

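In the 4 wild type/mIn1 libraries, E01G4.6, col-138, rol-1 and bli-6 each had counts in 1 library alone. The gap of its CPM to the others is then the whole range for any count above 0 (a ratio of 1 for each gene, above the 95% critical value of Dixon's test). That library was day 3 replicate 3 for E01G4.6, with 3 counts, and day 3 replicate 2 for col-138, rol-1 and bli-6, with 2, 1 and 1 counts. The other controls had 0 counts of each gene. With 3 counts or fewer, no difference between control libraries is shown. Of 67 groups looked at, 4 were marked. The critical value is set so that chance marks about 1 in 20 groups. That rate does not apply to these 4 genes, whose ratio was fixed by their 0 counts.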

How the results depend on the processing

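The count of genes called in rpl-33(0)/+ was 9, and it was 0 with DESeq2 or with no filter (unadjusted, 24 and 266), 3 with edgeR's own filter on low counts, 4 with at least 100 counts, 19 with at least 20 counts, 0 against day 3 alone, 24 against day 4 alone, 31 with day 3 and day 4 controls as separate groups and 14 without the 7 genes that do not follow depth. For rpl-5(0)/+ the count was 15, and it was 7 with edgeR's own filter, 0 with at least 100 counts (unadjusted, 3), 40 with at least 20 counts, 0 against day 3 alone, 24 against day 4 alone and 25 with the control ages separate. Leaving out 1 library gave 0 to 20 calls for rpl-33(0)/+ and 3 to 21 for rpl-5(0)/+. Between the mutants, 2 genes were called with the control ages separate, and 0 under the other alternatives run. The fit without the depth-independent genes, the lower class minimum and the last-named fit between the mutants were chosen after seeing the data.

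Same-numbered replicates deviated together only in part (r from -0.0764 to 0.440 over 114 genes), so they share a number and are not treated as pairs. With a replicate block, 19 genes were called in rpl-33(0)/+, 26 in rpl-5(0)/+ and 0 between them.

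Of 16 classes, 2 had no overlap between mutants and controls. The count was 8 against day 4 alone, 1 when vitellogenins, collagens and sperm proteins left the denominator (which takes the vitellogenins out), 4 of 21 with a minimum of 20 counts, and 2 to 4 when 1 library was left out. The log2 fold change of rol-1 in rpl-33(0)/+ ran from -1.40 without rpl-33(0)/+ replicate 3, a reversal, to 5.36 without day 3 replicate 2. For the other changes the cause was not tested. Low depth limits all values: 13 genes reach 100 counts.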
